A study of Mus musculus with 8 samples.

Results

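Expression of 8 genes at the entry of the insulin pathway was followed in mouse liver after knockdown of Dnajb9 or Rictor. The 8 genes were chosen by name from 24062 gene entries: the receptors Insr and Igf1r, the receptor substrates Irs1 and Irs2, the phosphatidylinositol 3-kinase (PI3K) subunits Pik3r1 and Pik3ca, and the receptor-binding adaptors Grb10 and Grb14. All 8 passed the filter on low counts, which left 13767 genes to test, so none was dropped for a low level.

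The livers came from lean wild-type C57BL/6 mice that were kept on a 12/12 h light cycle with free access to food. Every mouse had received 0.1 OD of an adenovirus, and the livers were taken 1 week later, after 6 h of food withdrawal. Mice of 3 months received the control virus lacZ1 or the short hairpin virus shDnajb9. Mice of 4 months received the control virus lacZ2 or the short hairpin virus shRictor. Each of the 4 groups had 2 libraries of total RNA depleted of ribosomal RNA. Dnajb9 encodes ERdj4, a co-chaperone of the endoplasmic reticulum, and Rictor encodes the subunit that defines mTOR complex 2, a kinase complex that phosphorylates Akt downstream of the insulin receptor. What the lacZ viruses carried was not stated beyond the name, and it is not stated that replicate libraries are of separate animals, so the p-values measure only the spread between these samples, which may be technical. A hairpin virus acts in the cells it infects, and the libraries are of whole liver.

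Insulin binding activates the tyrosine kinase of the insulin receptor, which phosphorylates IRS proteins. These recruit PI3K through its regulatory subunit, and the lipid made by PI3K leads to activation of Akt. In hepatocytes Akt holds FoxO transcription factors out of the nucleus and so restrains glucose production. Irs2 is known as a gene that liver transcribes more strongly in fasting, when insulin is low, whereas Grb10 and Grb14 bind the activated receptor and dampen its signal. In whole liver, fewer cells of a type and less RNA per cell cannot be told apart.

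The hairpin targets were lower in both libraries of their own group. Dnajb9 stood at 30.6 and 38.01 CPM with lacZ1 and at 21.99 and 20.31 in shDnajb9, a log2 change of -0.70 (SE 0.247, adjusted p = 0.0560). In lacZ2 and shRictor, Dnajb9 was at 40.3 and 38.7 and at 61.1 and 43.8. Rictor stood at 52.3 and 65.1 CPM with lacZ2 and at 40.1 and 41.9 in shRictor, a log2 change of -0.52 (SE 0.281, adjusted p = 0.231). In lacZ1 and shDnajb9, Rictor was at 65.4 and 68.8 and at 33.3 and 63.3. Neither target passed an adjusted p of 0.05 in its own contrast, although Dnajb9 with shDnajb9 passed with total count (-1.12, adjusted p = 0.0112) and with a correction for length and GC (-1.02, adjusted p = 0.00190), and shDnajb9 replicate 1 had less Rictor mRNA than either shRictor library. Adjusted p is that of the quasi-likelihood F test of edgeR with Benjamini-Hochberg adjustment over all genes tested, and rose or fell is written of genes under 0.05. CPM are gene counts relative to the size of their library, normalised by TMM (a trimmed mean of log ratios between libraries), and n is 2 libraries per group throughout.

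Library totals ran from 6426164 to 11383532 counts assigned to genes. Reads with more than one alignment made up 22.88% to 24.88% of the lacZ libraries, 41.3% and 41.97% of shDnajb9, and 32.69% and 26.72% of shRictor. Rpph1, a noncoding RNA, took 4.26% of the counts of lacZ2 replicate 1 and 4.70% of those of shDnajb9 replicate 1. Calls are therefore compared also without these 2 libraries. In the shDnajb9 contrast, long transcripts had lower fold changes than short ones, with a median log2 change of 0.44 for the 366 genes under 1 kb and -0.32 for the 1283 genes over 10 kb. In the shRictor contrast the medians by length lay between -0.12 and 0.05. The summed level of 8 hepatocyte markers, none at 0, was 19800 to 50670 CPM in the lacZ libraries and 61820 to 77280 CPM in the hairpin libraries, without overlap. Alb, the largest of them, did overlap, at 12010 to 35420 CPM in the lacZ libraries and 22400 to 36940 in the hairpin libraries, as did Cps1. In shDnajb9 Alb was lower, at 22400 and 25480 CPM, than with lacZ1, at 26230 and 35420. The summed level of 5 proliferation markers was 347.7 to 576.9 CPM in the lacZ libraries and 50.93 to 91.72 in the hairpin libraries. Stellate cell and fibroblast markers summed to 532.9 to 617.7 CPM in the lacZ libraries and to 309.6 to 429.8 in the hairpin libraries. Of these 8 markers, 4 fell with shDnajb9 and 2 with shRictor. Reln went the other way with shRictor, at 129.6 and 143 CPM against 76.35 and 78.89 with lacZ2. Kupffer cell and macrophage markers summed to 1132 to 1304 CPM in the lacZ libraries, to 988.6 and 1143 in shDnajb9 and to 647.1 and 820.2 in shRictor. Cd5l, the largest of them, was at 612.4 and 626.1 CPM with lacZ2 and at 277.5 and 352.3 in shRictor. Vsig4 went the other way with shRictor, at 14 and 14.37 CPM against 9.413 and 10.82 with lacZ2, and Clec4f overlapped. Endothelial marker sums overlapped, at 401.3 to 511.1 CPM and 429.2 to 574.3. Of 4 islet markers, the insulin genes Ins1 and Ins2 and also Iapp had 0 counts in every library. Gcg had 3 and 1 counts with lacZ1, 7 in lacZ2 replicate 2 and 0 elsewhere. The summed level of 5 exocrine pancreas markers was 11.32 CPM in lacZ1 replicate 2, where none was at 0, and at most 4.608 CPM in any other library. With total count in place of TMM, the all-gene median of the log2 changes went from -0.05 to -0.46 in the shDnajb9 contrast and from -0.02 to -0.42 in the shRictor contrast. Under that scaling 610 genes rose and 3349 fell with shDnajb9, against 1597 and 1728 with TMM, and 437 rose and 2807 fell with shRictor, against 1006 and 1502. The part that depth, transcript length, alignment class, cell composition and scaling had in the changes given here was not tested, apart from the settings named beside them.

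The sequence upstream of Irs1 and Irs2 is shown because Irs2 rose with both hairpins whereas its paralog Irs1 passed in neither contrast, as described further on; the genes were not tested against each other. Each window runs from 250 bases before to 50 bases after the annotated start in RefSeq, read 5′ to 3′ on the gene's strand in build GRCm38.p6. Capitals mark CACGTG, an E-box of the kind bound by SREBP and USF factors, and TGTTTTG, the core of the insulin response element through which FoxO factors act on genes such as Irs2. The Irs1 window is chr1:82291390-82291689 and the Irs2 window is chr8:11008880-11009179, both on the minus strand.
Irs1: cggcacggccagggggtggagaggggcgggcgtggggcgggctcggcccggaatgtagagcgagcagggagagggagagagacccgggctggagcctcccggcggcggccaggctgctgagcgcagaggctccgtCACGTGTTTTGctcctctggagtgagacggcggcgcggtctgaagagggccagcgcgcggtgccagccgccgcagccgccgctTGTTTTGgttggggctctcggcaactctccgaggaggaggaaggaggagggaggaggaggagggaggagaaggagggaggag
Irs2: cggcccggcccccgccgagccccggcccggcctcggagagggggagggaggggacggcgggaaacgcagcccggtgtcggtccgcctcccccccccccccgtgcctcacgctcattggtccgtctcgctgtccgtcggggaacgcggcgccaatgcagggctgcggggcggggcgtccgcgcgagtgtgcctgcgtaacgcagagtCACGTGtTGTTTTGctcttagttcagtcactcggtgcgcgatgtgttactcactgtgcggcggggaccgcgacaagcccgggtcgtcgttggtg
In the Irs1 window CACGTG began 115 bases before the start and TGTTTTG began 111 and 32 bases before it, so the first TGTTTTG shares its opening letters with the end of CACGTG. In the Irs2 window CACGTG began 44 bases and TGTTTTG 37 bases before the start. The whole Irs2 window lies upstream of the GENCODE gene model used for exons here, which begins at 11008458 on the minus strand. The Irs2 distances therefore hold for the RefSeq start only, as do those of Irs1, whose GENCODE model begins at 82291416. The windows shared 2 stretches of 10 letters, GTCACGTGTT and TGTTTTGCTC, at 117 and 111 bases before the start of Irs1 and at 46 and 37 bases before that of Irs2. Of 32851 RefSeq windows of the same length, searched on both strands, 7.15% held CACGTG, 6.28% held TGTTTTG and 0.408% held both. TGTTTAC, a forkhead motif, and TGACGTCA, the cyclic AMP response element, were in 3.65% and 1.79% of all windows and in none of the 9 windows matched to 7 of the 8 genes. CACGTG and TGTTTTG were absent from the windows of Igf1r, Pik3r1, Pik3ca, Grb10 and Grb14. Those of Igf1r and Pik3ca also lie wholly upstream of their GENCODE gene models. A match is a string in a window and says nothing of binding.

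Within the control livers the 8 mRNAs covered a wide range. Levels between genes are given as TMM-scaled CPM per kb of exon, as the mean and the range over the 4 lacZ libraries. Pik3r1, the regulatory PI3K subunit, led at 16.8 CPM per kb (15.7 to 19.5). Insr followed at 9.20 (8.22 to 11.2), then Irs1 at 7.37 (6.17 to 8.99) and Pik3ca, the catalytic subunit, at 6.85 (5.83 to 7.83). Grb14 had 4.66 (4.19 to 5.25), Irs2 2.19 (1.27 to 3.56), Grb10 1.58 (1.35 to 1.83) and Igf1r, the receptor for insulin-like growth factors, 0.440 CPM per kb (0.348 to 0.580). The ranges of Insr and Irs1, of Irs1 and Pik3ca, and of Irs2 and Grb10 overlapped, so those neighbours did not separate. The remaining neighbours did not overlap. In the 4 hairpin libraries the mean of Irs2 was 5.86 CPM per kb (4.14 to 8.10), which overlapped that of Irs1 at 6.50 (4.12 to 10.6). The hairpin means of the others were 15.8 for Pik3r1, 15.5 for Insr, 8.26 for Pik3ca, 6.86 for Grb14, 1.02 for Grb10 and 0.477 for Igf1r. That of Insr joins unlike groups, with means of 10.66 in shDnajb9 and 20.43 in shRictor and libraries from 7.04 to 25.9. Counts behind these levels were lowest for Igf1r, at 33 to 110 reads per library, and for Grb10, at 43 to 168.

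**Figure D1:**
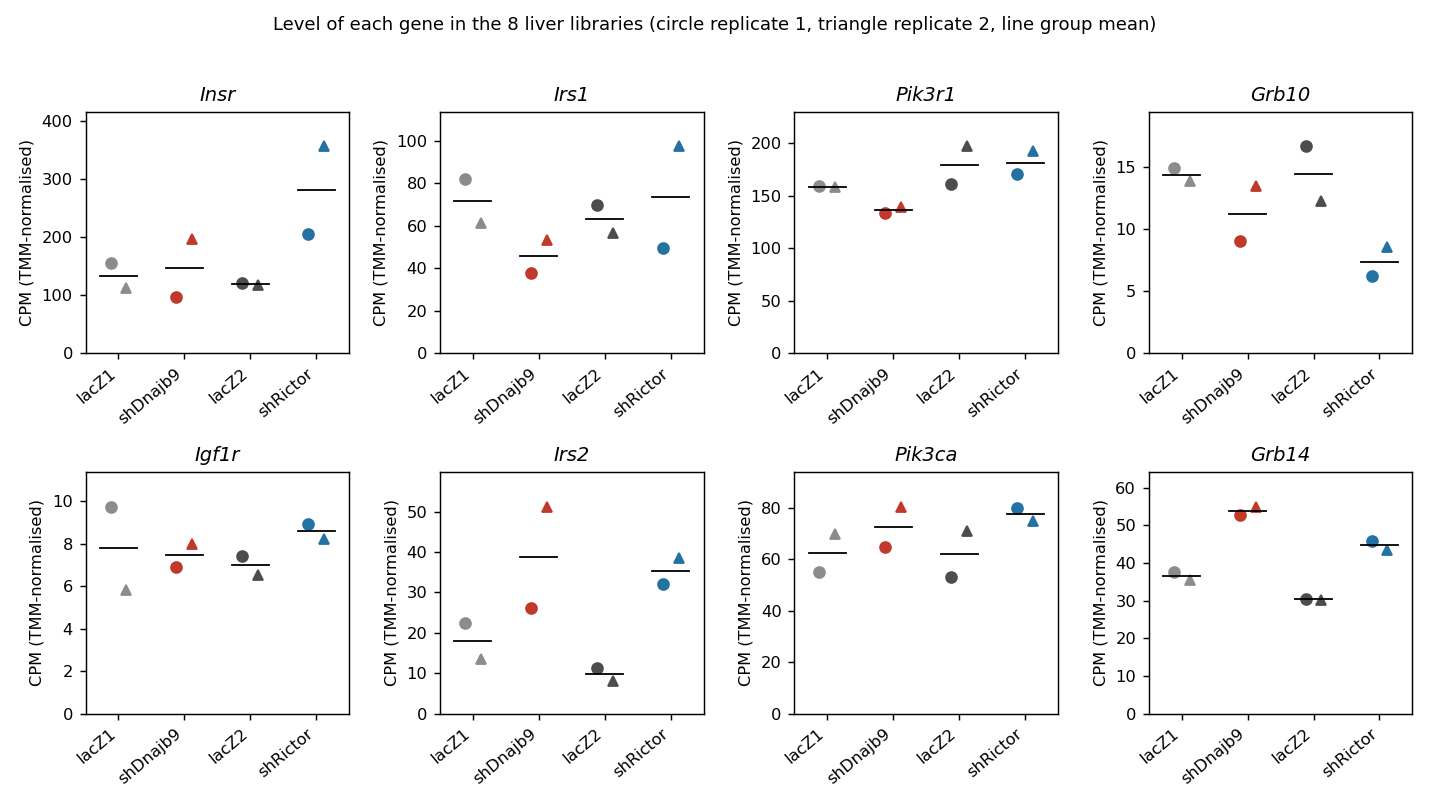
TMM-normalised CPM of the 8 genes (y axis, from 0, a scale of its own in each panel) in the 4 groups (x axis). Circles are replicate 1, triangles replicate 2 and lines the mean of both. Irs2 and Grb14 are higher in each hairpin library than in either library of its own control group, and Insr varies most between replicates with shRictor, from 205.8 to 355.7 CPM.

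Irs2 rose with both hairpins, Insr rose and Grb10 fell with shRictor, and Grb14 was higher by the same amount with each hairpin without passing in either contrast alone. With shDnajb9, 1 of the 8 genes rose and 0 fell, where 24.2% of all genes tested passed (11.6% higher and 12.6% lower). With shRictor, 2 rose and 1 fell, where 18.2% of all genes passed (7.31% higher and 10.9% lower). The median log2 change of the 8 genes was 0.03 with shDnajb9, beside -0.05 over all genes, and 0.31 with shRictor, beside -0.02. Without lacZ2 replicate 1 and shDnajb9 replicate 1 together, fewer of all genes were called with each hairpin. Of the 8 genes no more were then called than with all libraries. Counts this small do not set the 8 genes apart from the background.

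Insr, which encodes the insulin receptor (chromosome 8, 3122061 to 3279617, minus strand, GRCm38, exons of 13.75 kb in all), was at 120.7 and 117.8 CPM with lacZ2 and at 205.8 and 355.7 in shRictor. Both shRictor libraries lay above both controls, and they differed from each other by more than the control libraries did. The log2 change was 1.24 (SE 0.365, 95% interval 0.45 to 2.03, adjusted p = 0.0333), a 2.36-fold rise. In lacZ1 Insr was at 154.5 and 112.9 CPM and in shDnajb9 at 96.8 and 196.2, so that the shDnajb9 libraries enclosed both controls. Here the log2 change was 0.13 (SE 0.361, adjusted p = 0.809). The rise with shRictor did not pass without shRictor replicate 2 (0.79, adjusted p = 0.252), without lacZ2 replicate 1 (1.25, adjusted p = 0.150), without lacZ2 replicate 2 (1.24, adjusted p = 0.119) or with total count (0.82, adjusted p = 0.165).

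Igf1r (chromosome 7, 67952827 to 68233668, plus strand, exons of 16.79 kb) is scarce in adult hepatocytes and more abundant in other liver cells. It had 7.44 and 6.51 CPM with lacZ2 and 8.94 and 8.21 in shRictor, higher without overlap, at a log2 change of 0.30 (SE 0.295, adjusted p = 0.532). With lacZ1 at 9.74 and 5.84 and shDnajb9 at 6.91 and 7.99, the control libraries enclosed the hairpin libraries, and the log2 change was -0.07 (SE 0.303, adjusted p = 0.889). Neither value passed, and the 95% intervals reached from -0.72 to 0.59 with shDnajb9 and from -0.34 to 0.94 with shRictor. Its sign turned with total count in the shRictor contrast (-0.11) and with a correction for length and GC in the shDnajb9 contrast (0.50, adjusted p = 0.221).

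Irs2 (chromosome 8, 10984681 to 11008458, minus strand, exons of 6.32 kb), the substrate that carries much of the insulin signal in fasted liver, rose in both contrasts. It stood at 11.4 and 8.03 CPM with lacZ2 and at 32.1 and 38.6 in shRictor, a gap wider than the spread within either group. The log2 change was 1.87 (SE 0.351, 95% interval 1.11 to 2.63, adjusted p = 0.00319), a 3.66-fold rise. In lacZ1 it stood at 22.5 and 13.5 CPM and in shDnajb9 at 26.2 and 51.2, where the lower hairpin library lay close to the higher control. That log2 change was 1.11 (SE 0.339, 95% interval 0.38 to 1.84, adjusted p = 0.0318), a 2.16-fold rise. The rise with shRictor passed under all 21 alternatives, with log2 changes of 1.46 to 2.14 and adjusted p of at most 0.0347. The rise with shDnajb9 did not pass without shDnajb9 replicate 2 (0.53, adjusted p = 0.251), without lacZ1 replicate 2 (0.80, adjusted p = 0.191), without lacZ1 replicate 1 (1.52, adjusted p = 0.0501) or with total count (0.72, adjusted p = 0.208). An antisense transcript, 9530052E02Rik, overlaps 2.56% of the Irs2 exons and had no more than 2 counts in any library.

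Irs1 (chromosome 1, 82233101 to 82291416, minus strand, exons of 9.14 kb), the other main IRS protein of liver, did not pass in either contrast. It had 82.2 and 61.5 CPM with lacZ1 and 37.7 and 53.5 in shDnajb9, lower in both libraries, with a log2 change of -0.65 (SE 0.320, 95% interval -1.34 to 0.04, adjusted p = 0.149). It had 69.6 and 56.4 CPM with lacZ2 and 49.4 and 97.3 in shRictor, where the hairpin libraries enclosed the controls (0.22, SE 0.316, adjusted p = 0.683). With total count the value in the shRictor contrast turned to -0.20. A gene model on the opposite strand, Gm9747, covers 30.9% of the Irs1 exons and was not listed in the count tables, and the strand setting of the counting was not given, so reads of this pair cannot be told apart.

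Neither PI3K subunit passed in either contrast. Pik3r1 (chromosome 13, 101680563 to 101768217, minus strand), whose products hold and stabilise the catalytic subunit, was at 159.1 and 158.3 CPM with lacZ1 and at 133.4 and 139.6 in shDnajb9. Those hairpin libraries were lower without overlap, and the log2 change of -0.22 (SE 0.252, adjusted p = 0.547) did not pass. In lacZ2 Pik3r1 was at 161.4 and 196.9 and in shRictor at 170.4 and 192.7, inside the control range, with a log2 change of 0.02 (SE 0.251, 95% interval -0.52 to 0.56). Pik3ca (chromosome 3, 32397671 to 32468486, plus strand), which encodes the catalytic subunit p110 alpha, was at 55.1 and 69.8 CPM with lacZ1 and at 64.7 and 80.5 in shDnajb9, with overlap (0.22, SE 0.245, adjusted p = 0.527). In lacZ2 it was at 53.0 and 71.1 and in shRictor at 80.2 and 74.8, higher without overlap (0.32, SE 0.244, adjusted p = 0.410). With total count the Pik3ca values turned to -0.18 and -0.07 and that of Pik3r1 with shRictor to -0.38, none past the threshold.

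Grb10 and Grb14, members of one adaptor family, had log2 changes of opposite sign with each hairpin. Of these only that of Grb10 with shRictor passed with a hairpin taken alone, and the genes were not tested against each other. Grb10 (chromosome 11, 11930508 to 12038683, minus strand), an imprinted gene, was at 16.6 and 12.3 CPM with lacZ2 and at 6.23 and 8.50 in shRictor, lower in both libraries. The log2 change was -0.96 (SE 0.287, 95% interval -1.58 to -0.34, adjusted p = 0.0351), which is 1.94-fold lower. With shDnajb9 it was at 9.01 and 13.5 CPM against 14.9 and 13.8 in lacZ1, also lower without overlap, at -0.33 (SE 0.285, adjusted p = 0.407). The fall with shRictor passed with total count (-1.38, adjusted p = 0.0170) and did not pass with DESeq2 (-0.93, adjusted p = 0.0507), without lacZ2 replicate 1 (-0.73, adjusted p = 0.239), without shRictor replicate 1 (-0.75, adjusted p = 0.225), without shRictor replicate 2 (-1.20, adjusted p = 0.0659), or without lacZ1 replicate 1 (-0.95, adjusted p = 0.0544) or lacZ1 replicate 2 (-0.95, adjusted p = 0.0535), which enter only the estimate of spread.

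Grb14 (chromosome 2, 64912476 to 65024987, minus strand), an inhibitor of the insulin receptor kinase that is abundant in liver, did not pass in either contrast alone, although its replicates lay close together. It was at 37.7 and 35.5 CPM with lacZ1 and at 52.8 and 55.0 in shDnajb9, and at 30.6 and 30.1 with lacZ2 and 45.8 and 43.6 in shRictor. In both sets the hairpin libraries lay above the controls by far more than the replicates differed. The log2 change was 0.56 (SE 0.212, adjusted p = 0.0710) with shDnajb9 and 0.56 (SE 0.212, adjusted p = 0.0872) with shRictor. With total count the values were 0.13 and 0.15, where the medians of all genes were -0.46 and -0.42.

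**Figure D2:**
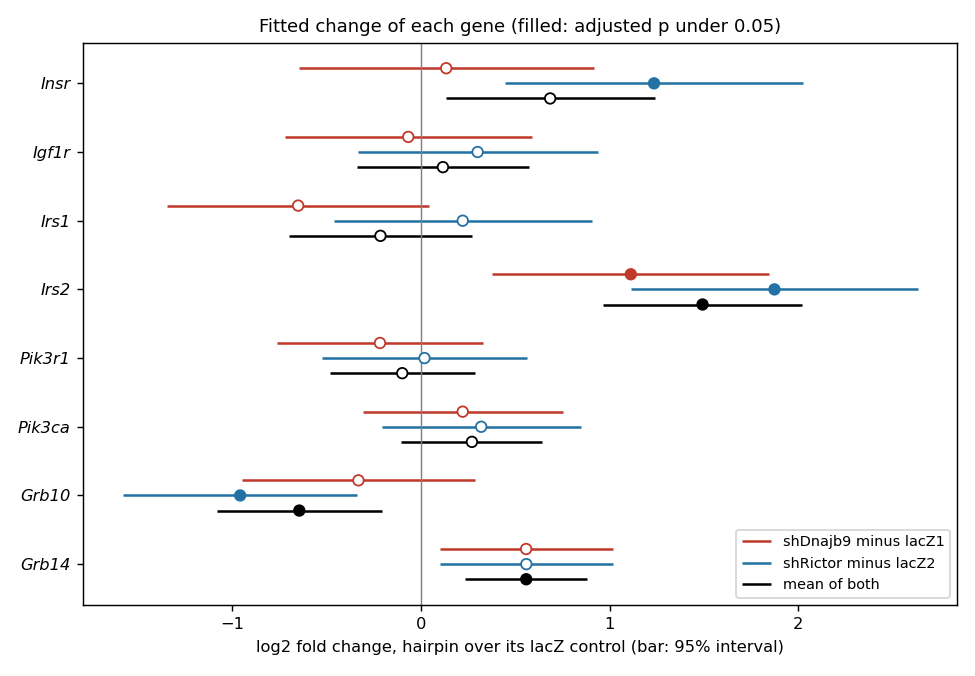
Fitted log2 change of each gene (x axis) with its 95% interval for shDnajb9 over lacZ1 (red), shRictor over lacZ2 (blue) and the mean of both effects (black), filled where the adjusted p is under 0.05. Irs2 lies above 0 in all 3, Grb14 near 0.56 in all 3, and Grb10 below 0. With total count in place of TMM the signs of Insr and Pik3ca with shDnajb9 and of Igf1r, Irs1, Pik3r1 and Pik3ca with shRictor turn, as do those of Igf1r and Pik3ca in the mean.

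Libraries of the compared groups did not overlap for 5 of the 8 genes with shDnajb9 (Irs2 and Grb14 higher, Irs1, Pik3r1 and Grb10 lower), where 67.5% of all genes tested did not (32.4% higher and 35.1% lower). They did not overlap for 6 of the 8 genes with shRictor (Insr, Igf1r, Irs2, Pik3ca and Grb14 higher, Grb10 lower), where that share was 60.4% (28.8% higher and 31.6% lower).

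The mean of both effects, in which each hairpin group keeps its own control, used all 8 libraries. Irs2 rose by 1.49 on the log2 scale (SE 0.244, adjusted p = 0.000545), Grb14 rose by 0.56 (SE 0.150, adjusted p = 0.0113) and Grb10 fell by 0.64 on the log2 scale (SE 0.202, adjusted p = 0.0246). These were 3 of the 8 genes, where 36.2% of all genes passed, 16.7% higher and 19.5% lower. With total count 853 of all genes were higher and 5272 lower, against 2305 and 2681 with TMM, and the 3 members called were then Irs2 (higher), Grb10 and Pik3r1 (lower, Pik3r1 at -0.51 and an adjusted p of 0.0263). Insr, at 0.68 (SE 0.256, adjusted p = 0.0525), lay on the other side of the threshold and passed under 8 of 20 alternatives. Among these were DESeq2 (0.71, adjusted p = 0.0189), RLE size factors (0.71, adjusted p = 0.0438), no filter (0.68, adjusted p = 0.0102), the correction for length and GC (0.82, adjusted p = 0.00398), or leaving out shDnajb9 replicate 1 (0.90, adjusted p = 0.0113) or shRictor replicate 1 (0.86, adjusted p = 0.0315). Irs2 passed under all 20 alternatives at 1.09 to 1.82. Grb14 did not pass without lacZ1 replicate 2 (0.54, adjusted p = 0.0516) or with total count (0.14, adjusted p = 0.487). Grb10 did not pass without lacZ1 replicate 1 (-0.62, adjusted p = 0.0773), without the library shDnajb9 replicate 1 (-0.52, adjusted p = 0.0721), lacZ2 replicate 1 (-0.54, adjusted p = 0.0989) or shRictor replicate 1 (-0.54, adjusted p = 0.103).

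Whether the hairpins differed was tested as the effect of shRictor minus that of shDnajb9. None of the 8 genes passed in edgeR, where 0.00726% of all genes did, namely Slc17a8, and 0 of the 8 passed in DESeq2. An unadjusted p under 0.05 in edgeR was reached by 0 of the 8 genes and by 10.86% of all genes. The largest differences were 1.10 for Insr (95% interval -0.00 to 2.21, adjusted p = 0.460), 0.87 for Irs1 (-0.10 to 1.84, adjusted p = 0.490) and 0.76 for Irs2 (-0.28 to 1.80, adjusted p = 0.562). Grb10 differed by -0.63 (-1.50 to 0.25). The difference for Grb14 was 0.00, with an interval of -0.62 to 0.62. Intervals this wide leave room for differences of 1.5-fold in either direction even for Grb14, so the test does not show that the hairpins act alike.

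Between the controls, lacZ2 minus lacZ1, age, virus and set differ together. None of the 8 genes passed in edgeR, as 0% of all genes did, and 0 of the 8 passed in DESeq2. An unadjusted p under 0.05 in edgeR was reached by 1 of the 8 genes and by 1.228% of all genes. Irs2 was the member at an unadjusted p under 0.05, at 11.4 and 8.03 CPM in lacZ2 against 22.5 and 13.5 in lacZ1, a log2 change of -0.90 (SE 0.350, adjusted p = 1.000). The controls of Irs2 therefore lay apart by about the amount of the shDnajb9 effect, and the larger fold of Irs2 with shRictor was measured from the lower control. Control libraries did not overlap for 3 of the 8 genes (Irs2 and Grb14 lower, Pik3r1 higher with lacZ2), where 21.7% of all genes did not (11.7% higher and 9.97% lower). In CPM the Irs2 levels of the hairpin groups overlapped, at 26.2 and 51.2 in shDnajb9 and 32.1 and 38.6 in shRictor. The other 7 genes lay between -0.27 (Grb14) and 0.18 (Pik3r1) in this comparison.

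Ratios between paired genes within a library do not move with the scaling of libraries, and they are given per kb of exon and without a test. The ratio of Irs1 to Irs2 was 2.53 and 3.16 with lacZ1 and 1.00 and 0.722 in shDnajb9. It was 4.23 and 4.86 with lacZ2 and 1.06 and 1.74 in shRictor. Every control library thus held more Irs1 than Irs2 mRNA, and the hairpin libraries held them at closer to equal levels. The ratio of Grb10 to Grb14 was 0.312 and 0.308 with lacZ1 and 0.135 and 0.194 in shDnajb9, and 0.430 and 0.322 with lacZ2 and 0.108 and 0.154 in shRictor. All 4 hairpin libraries lay below all 4 controls for both ratios. How often other pairs of genes separate in this way was not counted. The ratio of Pik3r1 to Pik3ca was 2.60 and 2.05 in lacZ1, 1.86 and 1.56 in shDnajb9, 2.75 and 2.50 with lacZ2 and 1.92 and 2.32 in shRictor. It was lower with each hairpin than in its own control, although 1 shRictor library lay above 1 lacZ1 library. The ratio of Igf1r to Insr overlapped between lacZ1 (0.0516 and 0.0423) and shDnajb9 (0.0585 and 0.0333), and was lower in shRictor (0.0356 and 0.0189) than in lacZ2 (0.0504 and 0.0453). A further ratio, Insr to Irs1, was chosen after its values were seen. It was 1.25 and 1.22 in lacZ1, 1.71 and 2.44 in shDnajb9, 1.15 and 1.39 with lacZ2 and 2.77 and 2.43 in shRictor.

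**Figure D3:**
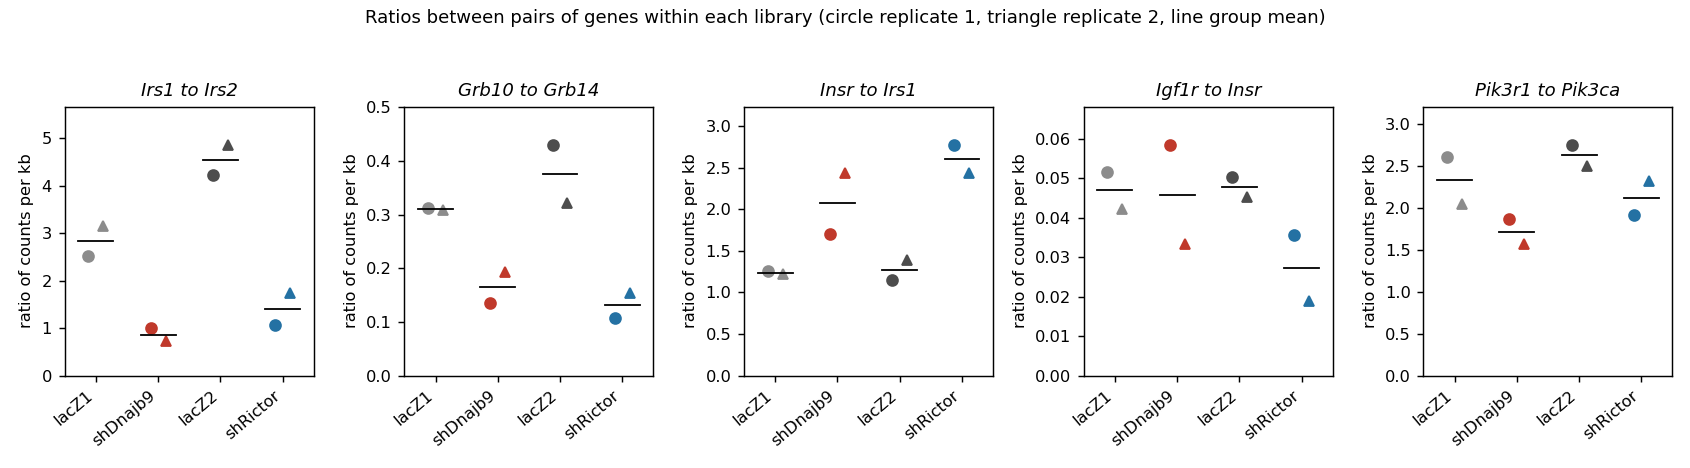
Ratio of counts per kb of exon between pairs of genes (y axis, from 0, a scale of its own in each panel) in each library by group (x axis). Circles are replicate 1, triangles replicate 2 and lines the mean of both. The ratios of Irs1 to Irs2 and of Grb10 to Grb14 are lower, and that of Insr to Irs1 higher, in all 4 hairpin libraries than in all 4 lacZ libraries. The ratio of Insr to Irs1 was chosen after its values were seen.

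Insr and Irs1 varied together between replicates. Insr was higher in replicate 2 than in replicate 1 with shDnajb9 (196.2 against 96.8 CPM) and with shRictor (355.7 against 205.8), and so was Irs1 (53.5 against 37.7 and 97.3 against 49.4). Irs2 followed the same order, at 51.2 against 26.2 and 38.6 against 32.1. The genes whose log2 CPM was most like that of each member over the 8 libraries, among 9543 candidates with an average log2 CPM of at least 3, were taken as a description. Libraries share depth and group, so high correlations are common. For Insr they were Elk4 (Pearson r = 0.988), Sos2 (0.983) and Reep6 (0.981), and for Igf1r Prrc1 (0.878) and Nt5dc3 (0.873). For Irs1 they were Ep400 (0.987), Mical3 (0.986) and Gcn1l1 (0.984), and for Irs2 Ltbp4 (0.973), Tnxb (0.955) and Irf2 (0.952). Pik3r1 was closest to Foxp2 (0.933), Bcl2l13 (0.922) and Nrp2 (0.917), and Pik3ca to Ascc3 (0.988), Bche (0.960) and Kdm5d (0.950). Grb10 was closest to Lrrc25 (0.989), Tor4a (0.965) and Rgs2 (0.957), and Grb14 to Cth (0.974), Tirap (0.974) and Slc25a15 (0.971).

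The member values moved with scaling and with single libraries as the plot of other processing choices shows. Exons of the members are long, at 6.32 to 16.79 kb, and the median log2 change of genes of 6 to 10 kb was -0.19 in the shDnajb9 contrast. With a per-library correction for length and GC content, chosen after seeing the data, Irs2 with shDnajb9 was at 1.63 (adjusted p = 0.000441), Insr at 0.46 and Irs1 at -0.28. In the shRictor contrast that correction left Irs2 at 1.90 and Insr at 1.18, and Grb14 passed (0.57, adjusted p = 0.0421).

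**Figure D4:**
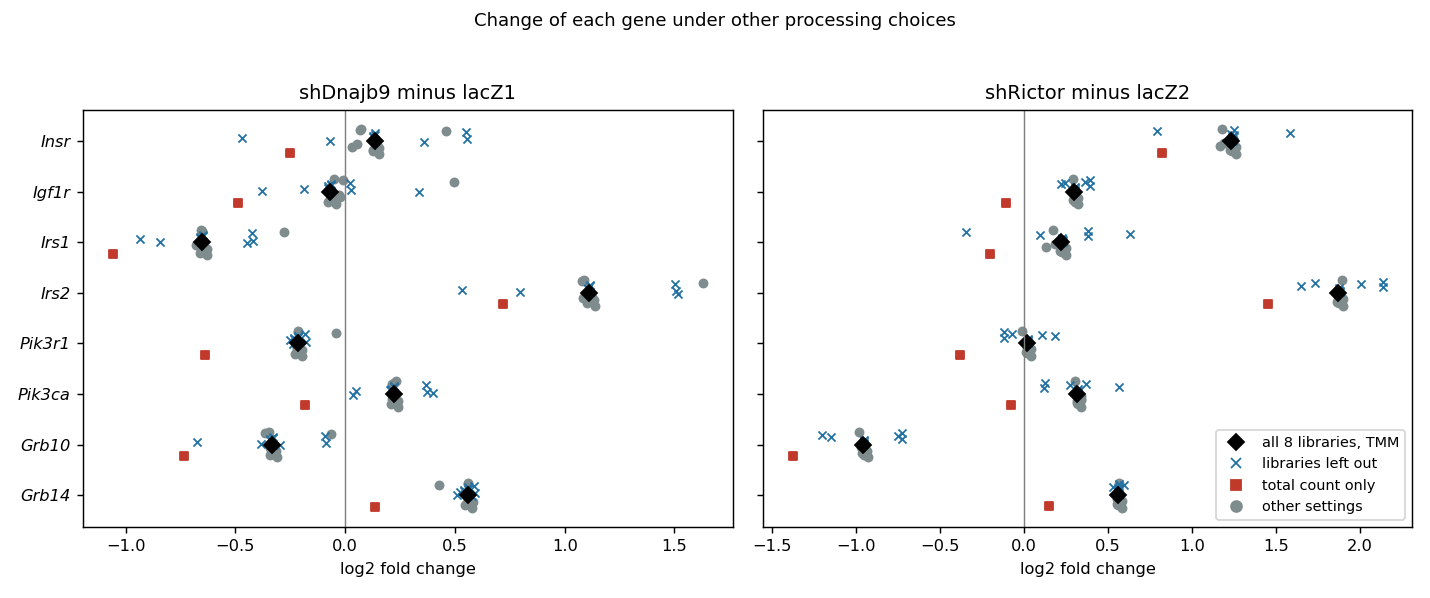
Log2 fold change of each gene (x axis) with all 8 libraries and TMM (black diamond), with libraries left out (blue crosses), with total count only (red square) and under the other settings (grey), for shDnajb9 over lacZ1 on the left and shRictor over lacZ2 on the right. Irs2 stays right of 0 and Grb10 left of 0 in both panels, whereas total count moves every gene to the left and turns Insr and Pik3ca on the left and Igf1r, Irs1, Pik3r1 and Pik3ca on the right.

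Among 88 other genes of the insulin and IGF pathway, 80 were tested. With shDnajb9, 7 rose and 10 fell (median log2 change -0.19, beside -0.05 over all genes). With shRictor, 11 rose and 5 fell (median 0.16, beside -0.02). These are 17 and 16 of 80 genes, near the 24.2% and 18.2% of all genes that passed. The balance of risers and fallers moved with the settings, among the 80 and among all genes. Total count gave 4 risers and 25 fallers with shDnajb9 and 5 and 15 with shRictor. Over all genes it gave 610 and 3349 and 437 and 2807. No filter gave 7 and 19 with shDnajb9 and 14 and 12 with shRictor. Over all 18534 genes then tested it gave 1895 and 2374 and 1287 and 1904. The length and GC correction gave 12 and 8 with shDnajb9 and 14 and 11 with shRictor. Over all genes it gave 1833 and 1897 and 1511 and 1862. A fit to only the 4 libraries compared gave 6 and 12 with shDnajb9 and 11 and 9 with shRictor. Over all genes that fit gave 1474 and 1692 and 1071 and 1645. Without lacZ1 replicate 1, lacZ1 replicate 2 or shDnajb9 replicate 1, fewer genes were called with shDnajb9, among the 80 and among all genes. The same held with shRictor without either lacZ2 or either shRictor library. Fewer were also called in both contrasts without shDnajb9 replicate 1 and lacZ2 replicate 1 together. In the test of the difference 0 of the 80 passed. The genes called with both hairpins were 9 of the 80, with the same direction for all 9, where 11% of all genes were called with both in the same direction and 0.0581% in opposite directions.

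Ligands and binding proteins held 5 of these. Igf1, the growth factor that hepatocytes secrete, was at 207.6 and 206.7 CPM with lacZ1 and 449.7 and 412.7 in shDnajb9, and at 174.0 and 172.3 with lacZ2 and 541.8 and 383.2 in shRictor. It rose by 1.06 (adjusted p = 0.0218) and by 1.42 (adjusted p = 0.00581) on the log2 scale. Igfbp2, an IGF binding protein of fasted liver, rose by 2.73 (adjusted p = 0.000412) and 2.91 (adjusted p = 0.000369), from 42.95 and 62.55 CPM in lacZ1 to 441.7 and 259.9 in shDnajb9 and from 24.40 and 43.04 in lacZ2 to 293.9 and 213.5 in shRictor. Igfbp3, a carrier of IGFs in blood, rose by 2.44 and 2.41, Igfbp4 by 1.10 and 1.45, and Igfbp5 by 2.46 and 2.08. Igfbp1, the remaining tested gene of the 6 and the binding protein most directly repressed by insulin, was at 0.50 (adjusted p = 0.256) and 0.19 (adjusted p = 0.730). Igf1 and Igfbp4 did not pass with shDnajb9 with total count (0.62 and 0.65) or without lacZ1 replicate 1 (adjusted p = 0.171 and 0.172), lacZ1 replicate 2 (0.112 and 0.218) or shDnajb9 replicate 1 (0.0869 and 0.171), and Igfbp4 also not without shRictor replicate 1 (adjusted p = 0.0591) or shRictor replicate 2 (adjusted p = 0.0582), which enter only the estimate of spread. Igfbp5 did not pass with shDnajb9 without lacZ1 replicate 1 (adjusted p = 0.147) or, at an adjusted p of 0.0809, without shDnajb9 replicate 1, nor with shRictor with total count (1.62, adjusted p = 0.0854) or without lacZ2 replicate 2 (1.20, adjusted p = 0.0614), shRictor replicate 1 (2.16, adjusted p = 0.0622) or shRictor replicate 2 (1.99, adjusted p = 0.0867). Without shRictor replicate 1, Igf1 with shRictor was at 1.15 (adjusted p = 0.0705) and Igfbp4 at 1.56 (adjusted p = 0.0517), and without shRictor replicate 2 Igfbp4 was at 1.35 (adjusted p = 0.0844). Hepatocyte markers, 6 of 8 risen with shDnajb9 and 5 of 8 with shRictor, moved in the same libraries, and their part in these values was not tested.

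Adaptors split. Grb7, of the same family as Grb10 and Grb14, rose with shDnajb9 from 43.49 and 31.81 CPM to 124.8 and 79.40 (1.43, adjusted p = 0.00297) and with shRictor from 46.13 and 40.93 to 95.04 and 101.5 (1.18, adjusted p = 0.00905). All 4 hairpin libraries held more Grb7 than any control. The call of Grb7 with shRictor was lost with total count (0.76, adjusted p = 0.0533) and without lacZ2 replicate 2 (1.11, adjusted p = 0.0545). Dok2, an adaptor of blood cells, fell by 0.85 with shDnajb9 (adjusted p = 0.0218) and by 1.76 with shRictor (adjusted p = 0.000442) on the log2 scale. The Dok2 call with shDnajb9 was lost without lacZ1 replicate 1, lacZ1 replicate 2 or shDnajb9 replicate 2 (adjusted p = 0.0918, 0.0848 and 0.0805). Of the 15 adaptors tested, 1 rose and 1 fell with shDnajb9, and 2 rose and 2 fell with shRictor, where Sos1 was at 0.77 and Dok1 at -0.98.

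Other PI3K subunits that fell were those of leukocytes. Pik3r5, the regulatory subunit of the gamma kinase, fell from 20.46 and 15.13 CPM to 6.07 and 7.19 with shDnajb9 (-1.41, adjusted p = 0.00280) and from 20.68 and 20.80 to 7.999 and 8.308 with shRictor (-1.35, adjusted p = 0.00292), and this passed under every alternative run. Pik3cd, the delta catalytic subunit, was at 77.41 and 52.30 CPM with lacZ1 and 13.82 and 33.65 in shDnajb9 (-1.43, adjusted p = 0.0146), and at 63.10 and 64.27 with lacZ2 and 26.82 and 38.80 in shRictor (-0.95, adjusted p = 0.0798). With shDnajb9 it did not pass without lacZ1 replicate 1 (-1.13, adjusted p = 0.143) or, at -0.94 and an adjusted p of 0.0836, without shDnajb9 replicate 1, and with shRictor it passed with total count (-1.36, adjusted p = 0.0417). Pik3r6 fell with shRictor by 1.08 on the log2 scale. Pik3c2g, a class II kinase of hepatocytes, rose with shRictor from 7.90 and 8.46 CPM to 17.88 and 17.20 (1.10, adjusted p = 0.00608), and it was at 0.23 (adjusted p = 0.483) with shDnajb9. The Pik3c2g call was lost with total count (0.70, adjusted p = 0.0635) and without lacZ2 replicate 1 (1.05, adjusted p = 0.0560), and with total count its value with shDnajb9 turned to -0.19. Beside these genes, 1 of 6 tested Kupffer cell and macrophage markers and 1 of 6 tested T and NK cell markers fell with shDnajb9, and 2 of 6 of each fell with shRictor. Neutrophil markers fell in 4 of 5 tested with shDnajb9 and 1 of 5 with shRictor, and their sum was 24.62 and 5.60 CPM with lacZ1, 0.419 and 0.570 in shDnajb9, 13.13 and 3.64 with lacZ2, and 1.53 and 4.30 in shRictor. Of 6 neutrophil markers, 4 and 3 were at 0 in the shDnajb9 libraries, 1 in lacZ2 replicate 2 and 2 in shRictor replicate 1. No Kupffer marker was at 0 in any library, and 1 of 7 T and NK markers was at 0 in lacZ1 replicate 2 and in shRictor replicate 2. T and NK markers summed to 30.33 to 51.16 CPM in the lacZ libraries and 19.69 to 29.66 in the hairpin libraries. The part of those cells in the fall of Pik3r5, Pik3cd and Dok2 was not tested.

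Among inhibitors of the receptor or of IRS, Prkcd, a kinase that phosphorylates IRS on serine, fell by 1.09 with shDnajb9 (adjusted p = 0.00902) and by 1.04 with shRictor (adjusted p = 0.0122) on the log2 scale. With shDnajb9 Prkcd did not pass without lacZ1 replicate 1 (adjusted p = 0.0933) or, at an adjusted p of 0.0712, without shDnajb9 replicate 1, nor with shRictor without lacZ2 replicate 1, lacZ2 replicate 2 or shRictor replicate 1 (adjusted p = 0.0636, 0.0553 and 0.118). Of the 16 tested, 0 rose and 3 fell with shDnajb9, and 0 rose and 1 fell with shRictor. The others that fell with shDnajb9 were Cblb (-1.12) and Fbxw8 (-0.91), and 31.1% of the 50-base stretches of Fbxw8 recur in another gene. Socs3, an insulin-induced inhibitor, was not among the called genes, at 17.27 and 19.06 CPM with lacZ1 and 18.01 and 10.04 in shDnajb9, with overlap (-0.40, adjusted p = 0.462). It was at 27.31 and 17.67 with lacZ2 and lower without overlap in shRictor, at 15.64 and 6.84 (-1.005, adjusted p = 0.0873).

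Of 3 related receptors and clearance genes, 1 fell with shDnajb9 and 1 rose with shRictor. Ceacam1, which promotes insulin clearance by liver, was at 24.17 and 38.98 CPM with lacZ2 and 75.99 and 101.3 in shRictor and rose by 1.48 on the log2 scale (adjusted p = 0.00538). It was at 0.59 (adjusted p = 0.168) with shDnajb9. Of the 50-base stretches of Ceacam1, 30.4% recur in other genes, with Ceacam2 the largest sharer, so its counts are uncertain. Ceacam2 itself had 1 to 16 counts per library. The Ceacam1 call was lost without lacZ2 replicate 1 (1.19, adjusted p = 0.0789). Igf2r fell with shDnajb9 (-1.73, adjusted p = 0.0170). Of 13 phosphatases 0 rose and 2 fell with shDnajb9 (Inppl1 at -0.87 and Inpp5d at -1.10), and none was called with shRictor. Of 15 kinases and targets, Akt2, the main hepatic Akt, rose with shDnajb9 (0.84, adjusted p = 0.0435), where Tbc1d4 fell (-1.07, adjusted p = 0.0185). Akt2 was also higher in shRictor, at 181.0 and 166.5 CPM against 113.6 and 102.6, without passing (0.68, adjusted p = 0.108). Foxo1, the factor that Akt restrains, was at 39.51 and 35.01 CPM with lacZ2 and 56.81 and 86.90 in shRictor and rose (0.95, adjusted p = 0.0316), as did Foxo4 (0.89, adjusted p = 0.0469). In the shDnajb9 contrast Foxo1 was at -0.45 (adjusted p = 0.253).

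Sos1, Dok1, Pik3r6, Cblb, Fbxw8, Socs3, Igf2r, Inppl1, Inpp5d, Akt2, Tbc1d4, Foxo1, Foxo4 and Igfbp1 were named after their values were seen. None of the 7 calls with shDnajb9 among them (Igf2r, Inppl1, Inpp5d, Cblb, Fbxw8, Akt2 and Tbc1d4) passed without lacZ1 replicate 1 (adjusted p 0.137 to 0.299) or without shDnajb9 replicate 1 (0.120 to 0.333). Fbxw8 (adjusted p = 0.0758), Inpp5d (0.0517) and Akt2 (0.164) were lost without lacZ1 replicate 2 as well, and Fbxw8, Inpp5d and Inppl1 with the length and GC correction (-0.44, -0.66 and -0.32). Akt2 with shDnajb9 was also lost with total count (0.38, adjusted p = 0.247), in the fit to only 4 libraries (0.84, adjusted p = 0.0605) and, through the estimate of spread, without lacZ2 replicate 2 (adjusted p = 0.0502), shRictor replicate 1 (0.0595) or shRictor replicate 2 (0.0595). None of the 5 calls with shRictor among them (Sos1, Dok1, Pik3r6, Foxo1 and Foxo4) passed without lacZ2 replicate 1 (adjusted p 0.0589 to 0.130), lacZ2 replicate 2 (0.0590 to 0.264) or shRictor replicate 2 (0.0969 to 0.261). Total count ended the rises of Sos1 (0.36, adjusted p = 0.349), Foxo1 (0.53, adjusted p = 0.250) and Foxo4 (0.46, adjusted p = 0.334), and DESeq2 that of Foxo4 (0.91, adjusted p = 0.0519). Sos1 (adjusted p = 0.169), Pik3r6 (0.114) and Foxo4 (0.0883) were lost without shRictor replicate 1, and Sos1 and Foxo4 without lacZ1 replicate 1 (0.0594 and 0.0520) or lacZ1 replicate 2 (0.0606 and 0.0506).

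**Figure D5:**
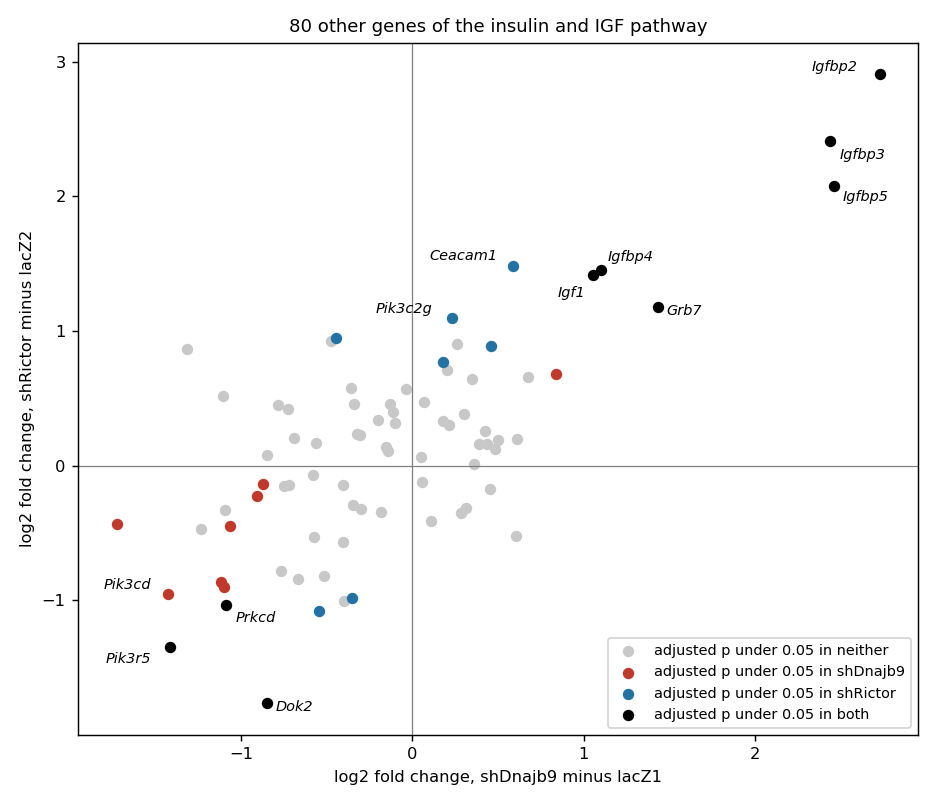
Log2 fold change of 80 other genes of the insulin and IGF pathway with shDnajb9 over lacZ1 (x axis) and shRictor over lacZ2 (y axis), coloured by which contrast gave an adjusted p under 0.05. The 9 genes called in both lie in the upper right (Igfbp2, Igfbp3, Igfbp5, Igfbp4, Igf1, Grb7) or the lower left (Pik3r5, Prkcd, Dok2). With total count Pik3c2g crosses to the left of 0.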

How the data were processed

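For each library the authors deposited a table of raw counts by gene symbol, made with HTSeq on mouse build mm10 after trimming with cutadapt, per the submitters' processing notes. The aligner, tool versions, gene annotation and strand setting are not given in the sources used here. The counts were fitted with edgeR 4.0.16 (R 4.3.3): filterByExpr (minimum count 10), TMM scaling, and 1 robust quasi-likelihood fit of 4 group means to all 8 libraries, with 4 residual degrees of freedom. Calls are at an adjusted p (Benjamini-Hochberg) under 0.05 over all 13767 genes tested. Groups of 2 allow no exact permutation p under 0.333. The 2 libraries of each group differed by more than counting error. Exon lengths and positions are from GENCODE M21 (98.3% of entries matched) and promoters from RefSeq.

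The named genes are the 8 members, the 2 targets, the 3 genes most correlated with each member, and, of a pathway list, those called with both hairpins and the 12 with the smallest adjusted p. A result of this rule is not reported here. Members, pathway list and cell type markers were chosen with earlier results of these data known. Alternatives were other scalings and filters, DESeq2 1.42.0, limma-voom 3.58.1, a replicate block, an adjusted p of 0.1, testing for more than a 1.5-fold change, and leaving out libraries. Length and GC correction, the crossed block and the ratio of Insr to Irs1 were added after seeing the data. On simulated counts for the shDnajb9 contrast (13476 genes, 200 changed), the fit recovered 41% of 2-fold and 88.8% of 4-fold changes. Of its calls on those counts, 3.76% were false. In the measured libraries 24.2% of all genes passed with shDnajb9, and whether these rates hold for them was not tested.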

Additional observations from a re-analysis of the deposited data

How the results depend on the processing

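With 2 libraries per group, single libraries decide many calls. Of the 8 genes, 0 to 1 were called with shDnajb9 (1 with all libraries) and 1 to 3 with shRictor (3 with all) when each library was left out in turn. Called genes overall then ranged from 998 to 4142 with shDnajb9 (lowest without lacZ1 replicate 1, and 2041 and 1385 without lacZ1 replicate 2 and shDnajb9 replicate 1), from 1053 to 3009 with shRictor (lowest without lacZ2 replicate 1, and 1156 and 1317 without shRictor replicates 1 and 2), from 3312 to 5418 in the mean (lowest without lacZ1 replicate 1), from 0 to 19 in the difference (highest without shDnajb9 replicate 2) and from 0 to 1 between the controls. The spread of a lone library is taken to equal that of the rest. Without shDnajb9 replicate 1 and lacZ2 replicate 1 together, 1675 genes were called with shDnajb9 and 0 in the difference.

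A test against a 1.5-fold change left 1314 genes and 0 of the 8 with shDnajb9, 1120 and 1 (Irs2) with shRictor, and 1892 and 1 (Irs2) in the mean. At an adjusted p under 0.1, 2 of the 8 and 4801 of all genes were called with shDnajb9, and 4 and 3435 with shRictor. With total count 0 of the 8 and 3959 of all genes were called with shDnajb9, and 2 and 3244 with shRictor. In the difference, no filter gave 395 genes and DESeq2 45, against 1 in the main result, and between the controls no filter gave 13, DESeq2 1 and a fit to only those 4 libraries 1, against 0.

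Values near 0 turned sign. With total count, Insr (-0.25), Pik3ca (-0.18) and Pik3c2g (-0.19) turned with shDnajb9. With shRictor, Igf1r (-0.11), Irs1 (-0.20), Pik3r1 (-0.38) and Pik3ca (-0.074) turned under that scaling. Igf1r (-0.30) and Pik3ca (-0.13) turned with it in the mean, and Pik3ca (0.10) between the controls. With length and GC correction, Igf1r turned with shDnajb9 (0.50) and in the difference (-0.21), and Pik3r1 with shRictor (-0.0085). Between the controls Grb10 turned without a filter (-0.0089) and with limma-voom (-0.019), and Pik3ca in the fit to 4 libraries (0.0029). Grb14 in the difference turned with limma-voom (-1.6e-05) and a replicate block (-0.00046). The cause of these turns was not tested.

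When each library was left out in turn, values that turned sign at least once ranged as follows. With shDnajb9, Insr ranged from -0.47 to 0.56 and Igf1r from -0.38 to 0.34. With shRictor, Irs1 ranged from -0.35 to 0.63 and Pik3r1 from -0.12 to 0.19. In the difference, Igf1r ranged from -0.031 to 0.69, Pik3ca from -0.083 to 0.36 and Grb14 from -0.029 to 0.055. Igf1r ranged from -0.035 to 0.32 in the mean. Between the controls, Insr ranged from -0.37 to 0.064, Igf1r from -0.48 to 0.24, Irs1 from -0.38 to 0.019, Pik3ca from -0.25 to 0.19 and Grb10 from -0.22 to 0.20. Without shDnajb9 replicate 1 and lacZ2 replicate 1 together, Igf1r with shDnajb9 was at 0.020, Pik3r1 with shRictor at -0.12, Pik3ca at -0.24 and Grb14 at -0.017 in the difference, and Pik3ca at 0.19 and Grb10 at -0.23 between the controls.

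Replicate numbers were not taken to pair the samples, since deviations of same-numbered libraries did not correlate in every pair of groups: at -0.30 for lacZ1 and shDnajb9, -0.33 for lacZ1 and shRictor, -0.03 for lacZ2 and shRictor, 0.02 for shDnajb9 and lacZ2, 0.20 for lacZ1 and lacZ2, and 0.32 for shDnajb9 and shRictor. The replicate block changed no call of the 8 genes and gave 3 genes in the difference. In the 4 libraries of lacZ1 and shDnajb9, crossing the numbers gave 5543 genes and 3 of the 8, against 2434 and 1 as numbered.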
